A study of Mus musculus with 4 samples.

Results

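The Toll-like receptors, membrane proteins that bind conserved molecules of bacteria, viruses and fungi, were followed through the cell classes of mouse liver as 10 genes, Tlr1 to Tlr9 and Tlr13, out of 32285 genes in each table. They were chosen by symbol, with no threshold on a measured value. Tlr1, Tlr2, Tlr4, Tlr5 and Tlr6 act mainly at the cell surface, where Tlr2 pairs with Tlr1 or Tlr6 to bind lipopeptides, Tlr4 binds lipopolysaccharide together with Ly96 (MD-2), and Tlr5 binds flagellin. Tlr3, Tlr7, Tlr8, Tlr9 and Tlr13 act in endosomes, where Tlr3 binds double-stranded RNA, Tlr7 and Tlr8 bind single-stranded RNA or its breakdown products, Tlr9 binds DNA with unmethylated CpG and Tlr13 binds bacterial ribosomal RNA. Endosomal receptors need the chaperone Unc93b1 to leave the endoplasmic reticulum. Most receptors signal through the adaptor Myd88, Tlr3 signals through Ticam1, and Tlr4 uses both routes. The liver meets gut-derived ligands in portal blood, and Kupffer cells, the resident macrophages of the sinusoids, and sinusoidal endothelial cells lie first in that path.

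All 10 genes had at least 1 UMI (unique molecular identifier, a tag that marks 1 captured molecule) in the cells analysed. The study profiled liver cells of male C57BL/6J mice by droplet single-cell RNA sequencing, which counts UMIs per gene and cell. There was 1 library of the normal chow group (NCD), 2 of the high-fat diet group (HFD 1 and HFD 2) and 1 library from the JQF group, in which the high-fat diet was combined with a later oral course of the herbal Jiangtang Qingre Formula. The NCD and HFD groups received distilled water orally over that course. All livers were perfused and enzymatically digested. The labels do not say whether a library pooled animals, and the methods of the study count the liver tissues as n = 1, 2 and 1 for NCD, HFD and JQF without a word on pooling. The p-values of the diet comparisons rest on the spread between the HFD libraries alone, with the lone NCD and JQF libraries taken to vary as that pair did. The comparisons between classes use the sums of all 4 libraries.

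Positions are those of the mouse assembly GRCm38. Tlr1 (chr5:64924679-64933563, minus strand) and Tlr6 (chr5:64952031-64960097, minus strand) are neighbours separated by 18467 bases. Their transcripts shared 400 identical 60-base stretches, which was 12.04% of those in Tlr1 and 10.83% of those in Tlr6, so reads that fall within the shared parts cannot be told apart. How many UMIs fall there was not measured, and the levels of both genes are uncertain for that reason. Tlr8 (chrX:167242696-167264329, minus strand) lies 40599 bases from Tlr7 (chrX:167304929-167330558, minus strand), and Tlr13 (chrX:106143204-106160493, plus strand) is on the same chromosome. Tlr2 (chr3:83836272-83841767, minus strand), Tlr4 (chr4:66827584-66930284, plus strand), Tlr5 (chr1:182954788-182976044, plus strand) and Tlr9 (chr9:106222598-106226883, plus strand) stand on chromosomes with no other listed member. Tlr3 (chr8:45395665-45411080, minus strand) overlaps Gm45542 on the opposite strand.

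RefSeq promoter windows on GRCm38.p6, from 250 bases before to 50 bases after a transcription start, matched 8 of the 10 genes. RefSeq gives 2 windows for Tlr1 and for Tlr6. Windows of the 4 members whose macrophage level passed the test of the high-fat diet are given 5′ to 3′ on the strand of the gene, because these members moved in the same cells. The first Tlr1 window is at chr5:64933509-64933808 (minus strand), Tlr2 at chr3:83841559-83841858 (minus strand), Tlr8 at chrX:167264280-167264579 (minus strand) and Tlr13 at chrX:106143025-106143324 (plus strand). Capitals mark a match to a searched motif.
Tlr1: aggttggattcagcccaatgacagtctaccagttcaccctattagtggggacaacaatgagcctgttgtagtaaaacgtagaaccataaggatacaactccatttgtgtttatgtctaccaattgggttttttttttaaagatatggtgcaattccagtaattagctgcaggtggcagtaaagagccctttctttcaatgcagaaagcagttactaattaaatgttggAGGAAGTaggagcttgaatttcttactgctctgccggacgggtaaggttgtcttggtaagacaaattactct
Tlr2: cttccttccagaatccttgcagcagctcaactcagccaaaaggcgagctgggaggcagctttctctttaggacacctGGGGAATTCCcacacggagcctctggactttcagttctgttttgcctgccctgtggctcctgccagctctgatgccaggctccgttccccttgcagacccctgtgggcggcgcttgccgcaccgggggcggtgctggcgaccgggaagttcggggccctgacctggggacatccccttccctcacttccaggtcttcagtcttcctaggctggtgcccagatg
Tlr8: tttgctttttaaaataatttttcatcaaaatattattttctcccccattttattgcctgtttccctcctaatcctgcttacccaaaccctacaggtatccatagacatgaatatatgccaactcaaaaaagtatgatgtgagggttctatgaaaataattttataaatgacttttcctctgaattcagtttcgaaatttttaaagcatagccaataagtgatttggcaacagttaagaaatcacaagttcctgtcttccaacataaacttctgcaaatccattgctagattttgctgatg
Tlr13: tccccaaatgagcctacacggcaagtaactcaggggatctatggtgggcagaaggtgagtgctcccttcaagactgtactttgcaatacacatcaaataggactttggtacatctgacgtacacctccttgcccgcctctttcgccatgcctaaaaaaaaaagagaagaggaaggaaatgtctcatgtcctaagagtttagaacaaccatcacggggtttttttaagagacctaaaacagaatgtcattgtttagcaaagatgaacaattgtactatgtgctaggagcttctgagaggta
The letters searched on both strands were AGGAAGT, the core of sites for the myeloid factor PU.1, GAAA followed after any 2 bases by GAAA, an interferon response element, and GGG followed after any 3 bases by TTCC, a kappaB site. Of 32851 windows of all genes, 9.35% held the first, 3.44% the second and 5.56% the third. The printed Tlr1 window held AGGAAGT at bases 229 to 235, counted from its 5′ end, and the Tlr2 window held the kappaB letters at bases 78 to 87. The Tlr8 and Tlr13 windows, and that of Tlr5, held none of them. The second Tlr1 window, at chr5:64932650-64932949, held none of them and is not printed. Of the other windows not printed, that of Tlr3 held the kappaB letters, those of Tlr6 held all 3 motifs and that of Tlr9 held AGGAAGT. A match is a description of letters only.

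Cells with at least 500 genes and at most 20% mitochondrial UMIs numbered 5975 in the NCD library, 6516 in HFD 1, 10259 in HFD 2 and 8540 in the JQF library, with median depths of 7608 to 13081 UMIs per cell. Cells were put into classes by the UMIs of marker genes, none of them a Toll-like receptor, and 24937 of the 31290 cells fell into the 13 classes described here. The gates rest on several markers each, so that detection of a marker in gated cells follows in part from the gate, and it varied between markers and libraries. In Kupffer cells Clec4f was detected in 78.6% to 96.8% of cells, Vsig4 in 45.6% to 96% and Timd4 in 3.26% to 88.0%. In nonclassical monocytes Treml4 was detected in 96.8% to 100% of cells and Cd300e in 10.2% to 74.1%. In type 2 conventional dendritic cells (cDC2) Clec10a was detected in 36.8% to 51.1%. Type 1 conventional dendritic cells are called cDC1 and plasmacytoid dendritic cells pDC. The labels describe the material as immune cells and, in another field, as stem cells of blood, yet 5133 cells passed the endothelial gate, and stem cell markers were not scored. Libraries differed in makeup before any receptor was considered. Endothelial cells numbered 3413 in the NCD library, 96 in HFD 1, 1070 in HFD 2 and 554 in the JQF library, and Kupffer cells made up 89.9%, 37.1%, 70.0% and 61.1% of macrophages in that order. Within the Kupffer gate itself, the resident marker Timd4 was detected in 88.0%, 3.26%, 30.5% and 74.2% of cells in the same order.

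Levels are given in CPM, the UMIs of a gene per 1000000 UMIs summed over all cells of a class in a library. They are compared between classes and libraries for the same gene and never between genes. A mean over libraries uses those with at least 20 cells of the class. The NCD library is therefore missing for macrophages outside the Kupffer gate (14 cells), classical monocytes (19) and mature dendritic cells (9). Kupffer means include it, so the means of the macrophage classes rest on different libraries. Endothelial cells outside the sinusoidal gate lack HFD 1 (4 cells) and the JQF library (9).

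**Figure D1:**
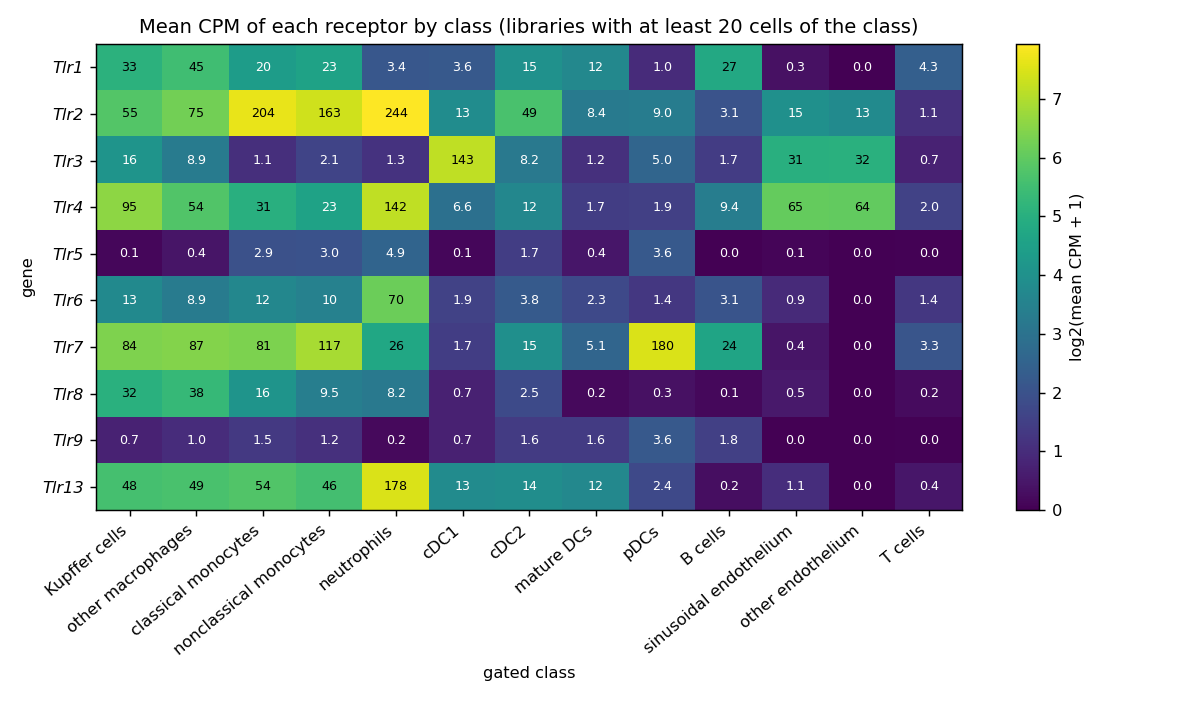
Mean level of each Toll-like receptor (rows) in each gated cell class (columns) over the libraries with at least 20 cells, in CPM, with colour on a log scale. Tlr2, Tlr4, Tlr5, Tlr6 and Tlr13 had their highest mean in neutrophils, Tlr7 and Tlr9 in pDC, Tlr3 in cDC1, and Tlr1 and Tlr8 in macrophages outside the Kupffer gate.

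Among the surface receptors, neutrophils had the highest mean level of 4 of 5. Tlr2, the shared partner of lipopeptide recognition, averaged 244 ± 35.8 CPM (SD, n = 4) in neutrophils, 204 ± 31.8 CPM (n = 3) in classical monocytes and 163 ± 47.7 CPM (n = 4) in nonclassical monocytes, which were gated on Treml4, Ace, Cd300e and Adgre4 with at least 2 of the 4 required. Tlr2 was lower in macrophages outside the Kupffer gate, at 75.1 CPM, in Kupffer cells, at 54.7 CPM, and in cDC2, at 49.3 CPM. T cells, the class of reference in a later test, had 1.14 CPM.

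Tlr4, the lipopolysaccharide receptor, averaged 142 ± 57.2 CPM (SD, n = 4) in neutrophils, 95.2 ± 17.3 CPM in Kupffer cells and 65.4 ± 2.84 CPM in sinusoidal endothelial cells. Its level in sinusoidal endothelial cells was 67.6 CPM in the NCD library, 66.6 in HFD 1, 66.2 in HFD 2 and 61.2 in the JQF library, so that a small spread there stood beside a wide one in neutrophils. Ly96, which Tlr4 needs to bind its ligand, averaged 75.1 CPM in sinusoidal endothelial cells, 72.5 CPM in Kupffer cells and 35.9 CPM in neutrophils. Tlr6, the other partner of Tlr2, averaged 70.4 ± 14.7 CPM in neutrophils and 12.6 CPM in Kupffer cells, its next class. Tlr1 stood apart from the other surface receptors. It averaged 44.7 ± 12 CPM (n = 3) in macrophages outside the Kupffer gate, 33.4 ± 12.1 CPM (n = 4) in Kupffer cells and 26.9 ± 7.56 CPM (n = 4) in B cells, and only 3.41 CPM in neutrophils. Tlr5, the flagellin receptor, was sparse throughout. Its highest mean was 4.86 ± 0.965 CPM in neutrophils, from 3, 4, 6 and 9 UMIs in the NCD, HFD 1, HFD 2 and JQF libraries.

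The 5 endosomal receptors had their highest means in 4 different classes. Tlr3, the receptor for double-stranded RNA, was highest in cDC1 at 143 ± 31.4 CPM (SD, n = 4), with 178 CPM in the NCD library, 156 in HFD 1, 134 in HFD 2 and 104 in the JQF library. Endothelial cells outside the sinusoidal gate, with 7.12 and 56.0 CPM in the 2 libraries that held enough of them, had a mean of 31.6 CPM. Sinusoidal endothelial cells followed with 31.4 ± 10.4 CPM and Kupffer cells with 16.4 CPM, while cDC2 had 8.23 CPM. The library with the highest cDC1 level was NCD and the lowest was JQF. Tlr7, for single-stranded RNA, was highest in pDC, at 212 CPM in the NCD library, 130 in HFD 1, 204 in HFD 2 and 173 in the JQF library (mean 180 ± 37.1). It was also present in nonclassical monocytes at 117 CPM, in macrophages outside the Kupffer gate at 87.2 CPM, in Kupffer cells at 84.1 CPM and in classical monocytes at 81.4 CPM. In cDC1, Tlr7 averaged 1.71 CPM.

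Tlr8, the X-linked neighbour of Tlr7, had its highest means in the macrophage classes, at 38.5 ± 7.72 CPM (SD, n = 3) outside the Kupffer gate and 32.0 CPM in Kupffer cells. It averaged 0.293 CPM in pDC, where Tlr7 had its highest mean. Tlr13, the sensor of bacterial ribosomal RNA, averaged 178 ± 42.6 CPM in neutrophils, followed by 54.2 CPM in classical monocytes and 47.8 to 49.4 CPM in the macrophage classes. Tlr9, the CpG DNA receptor, averaged 3.62 ± 1.39 CPM in pDC and 1.81 CPM in B cells, from 2, 3, 10 and 5 UMIs in the pDC of the NCD, HFD 1, HFD 2 and JQF libraries. Unc93b1, the chaperone of the endosomal receptors, averaged 580 CPM in Kupffer cells, 535 CPM in pDC and 18.3 CPM in T cells.

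Which neighbouring classes in these orders differed was tested in a fit of all classes with library as a block (edgeR's quasi-likelihood test, Benjamini-Hochberg adjusted over 14700 genes, with a gene called at an adjusted p below 0.05). Of 120 neighbouring pairs of classes, 29 were called. Of all genes, 43.8% were called over the same pairs of classes, each pair counted once per direction. The pairs were adjacent in each member's own order of levels, which favours small differences. The count of members and the share of all genes can therefore not be compared. The count ranged from 19 to 33 when 1 library was left out, and the lowest, 19, came without HFD 2. Neutrophils exceeded the next class for Tlr6 (log2 difference 3.04, SE 0.25), for Tlr13 (2.27, SE 0.21), for Tlr4 (1.15, SE 0.26, adjusted p = 1.59e-04), for Tlr5 (1.44, SE 0.64, adjusted p = 0.0495) and for Tlr2 (0.69, SE 0.25, adjusted p = 0.0174). The fit scaled the sums by TMM, a correction for composition that the CPM means leave out. Those means lay closer together than the fitted differences. They were 244 and 204 CPM for Tlr2, 4.86 and 3.65 CPM for Tlr5 and 142 and 95.2 CPM for Tlr4. The lead of neutrophils in these genes is therefore not independent of scaling. In cDC1, Tlr3 exceeded the next class, endothelial cells outside the sinusoidal gate, by 3.05 (SE 0.71, adjusted p = 7.23e-04). Kupffer cells exceeded sinusoidal endothelial cells in Tlr4 by 0.74 (SE 0.25, adjusted p = 0.0105) and classical monocytes in Tlr8 by 1.02 (SE 0.32, adjusted p = 0.0118). The order at the top was not resolved for Tlr7, where pDC and nonclassical monocytes differed by 0.41 (SE 0.29, adjusted p = 0.279), for Tlr8, where the macrophage classes differed by 0.14 (adjusted p = 0.878), or for Tlr1. For Tlr9, 0 of its 12 neighbouring pairs were called.

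Against T cells, 84 of 120 pairs of a member and a class were higher and 3 were lower, beside 24.8% of all genes higher over the same classes. Most members were low in T cells, so these counts describe levels and do not set the members apart from other genes. With 1 library left out, 73 to 83 were higher. All 10 members were higher in cDC2 (25.7% of all genes), in nonclassical monocytes (25.8%) and in macrophages outside the Kupffer gate (27.3%), and 9 of 10 were higher in Kupffer cells (29.9%) and in classical monocytes (27.1%). Sinusoidal endothelial cells exceeded T cells in 3 of 10 (31.4% of all genes), Tlr2, Tlr3 (log2 difference 5.49, SE 0.41) and Tlr4 (5.01, SE 0.31). The 3 lower pairs were Tlr1 in sinusoidal endothelial cells (-3.71) and in pDC (-1.59) and Tlr7 in sinusoidal endothelial cells (-3.54). Of all genes, 34.7% were lower in sinusoidal endothelial cells and 25.6% in pDC. B cells exceeded T cells in 6 of 10 (15.4% of all genes), among them Tlr1 (2.62, SE 0.30), Tlr7 (2.74, SE 0.34) and Tlr9 (4.94, SE 0.73). By receptor, Tlr2 was higher in 11 of 12 classes and Tlr4 in 10, whereas Tlr1, Tlr5 and Tlr8 were higher in 7.

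Detection per cell was compared at equal depth. The class with the highest share was then the one with the highest mean CPM for the 8 members other than Tlr5 and Tlr9. Equal depth and CPM both scale by total UMIs, so this match was in part built in. Here each cell was thinned at random to 2000 UMIs, and shallower cells were left out, which kept 86.9% to 100% of neutrophils and 98.1% to 99.6% of T cells in a library. Among thinned neutrophils, 30.4% had a Tlr2 UMI, 26.9% a Tlr13 UMI, 20.1% a Tlr4 UMI and 10.9% a Tlr6 UMI, against 0.193%, 0.105%, 0.293% and 0.355% of thinned T cells. The unthinned shares were 45.0%, 43.4%, 31.2% and 23.0% in neutrophils, whose median depth was 3364 to 5805.5 UMIs, and 0.884%, 0.308%, 1.29% and 1.2% in T cells, at 6506 to 10559 UMIs. Unthinned, Tlr2 was found in 64.9% of classical monocytes (29.6% thinned) and Tlr4 in 57.0% of Kupffer cells. Both unthinned shares were above those of neutrophils, which still led for Tlr13 and Tlr6. Tlr3 was detected in 23.0% of thinned and 75.0% of unthinned cDC1, and Tlr7 in 21.9% of thinned and 69.04% of unthinned pDC. The matching T cell shares were 0.0987% and 0.531% for Tlr3 and 0.587% and 2.03% for Tlr7. In macrophages outside the Kupffer gate, Tlr1 was detected in 8.69% thinned and 38.4% unthinned and Tlr8 in 8.74% and 31.7%, against 0.793% and 3.44% of T cells for Tlr1 and 0.0199% and 0.135% for Tlr8. Thinned shares of Tlr5 in neutrophils (0.462%, unthinned 2.02%) and of Tlr9 in pDC (0.396%, unthinned 5.31%) came from few cells, and both were 0% in the lowest library. Thinned to 4000 UMIs instead, Tlr4 was no longer led by neutrophils (29.5%), since Kupffer cells had 30.01% and endothelial cells outside the sinusoidal gate 32.2%, the last from 5 and 9 cells in 2 libraries. No Tlr9 UMI was found in 5133 endothelial cells, which allows a share of up to 0.0584%, and no Tlr5 UMI in 1412 B cells, which allows up to 0.212%. These limits, set at 3 counts, cover counting error only, and they limit cells with a UMI, not cells that express the gene.

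**Figure D2:**
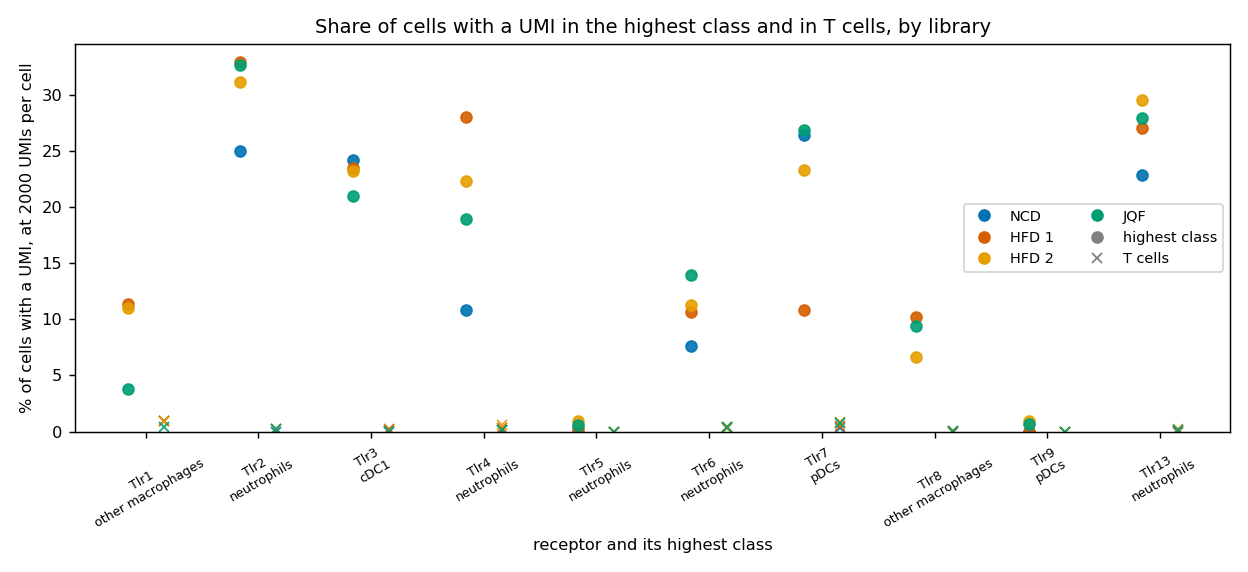
Share of cells with at least 1 UMI of each Toll-like receptor after thinning to 2000 UMIs, in the class with the highest mean level and in T cells. Points are libraries with at least 20 cells of the class, and the leading class lies above T cells in each of them for the 8 members other than Tlr5 and Tlr9.

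The main comparison asked how the high-fat diet changed these genes within a class. UMIs were summed per library over macrophages, neutrophils, dendritic cells, B cells, endothelial cells and T cells, the classes with at least 50 cells in every library, and tested across libraries with edgeR on all genes of the class. Of 60 pairs of a member and a class, 40 passed the filter on low counts. Of these, 5 were higher and 2 lower in the HFD libraries than in the NCD library at an adjusted p below 0.05, while 14.9% of all genes tested over the 6 classes were called, 6.74% as higher and 8.2% as lower. The counts describe these 10 genes and do not set them apart from others. The log2 difference was above 0 in 28 of the 40 pairs and below 0 in 12.

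**Figure D3:**
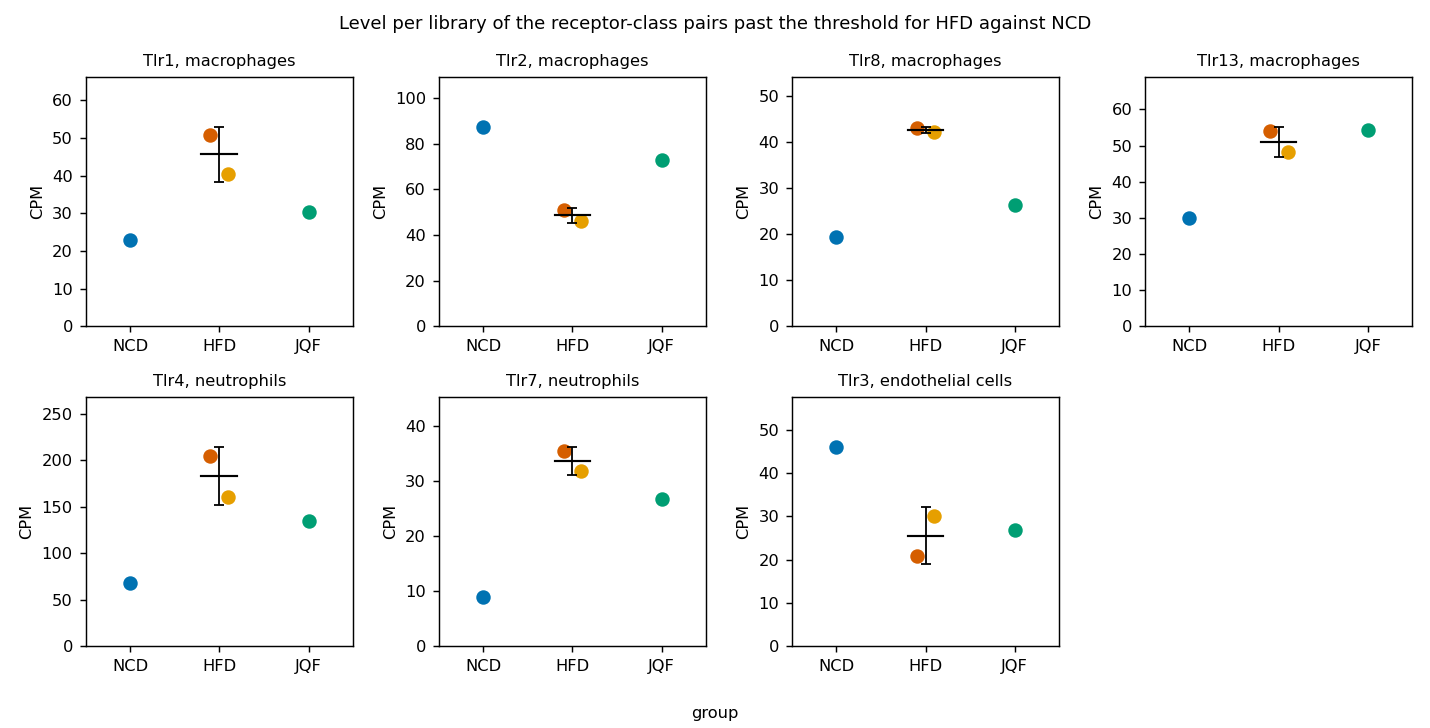
Level in CPM of the 7 pairs of receptor and class that passed the test of the high-fat diet, with 1 point per library and the HFD mean with its SD (n = 2). The NCD library lies outside the HFD pair in each of the 7 panels.

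In macrophages, 4 of 8 tested members were called, 3 higher and 1 lower (10.7% of all genes in macrophages, 5.88% higher and 4.78% lower). Tlr8 stood at 19.3 CPM in the NCD library, 43.0 in HFD 1, 42.1 in HFD 2 and 26.4 in the JQF library, a log2 difference of HFD from NCD of 1.23 (SE 0.18, adjusted p = 0.0328). Tlr1 stood at 22.8, 50.8, 40.5 and 30.3 CPM in the same order, a difference of 1.07 (SE 0.22, adjusted p = 0.0492). Tlr13 stood at 30.02, 54.0, 48.2 and 54.3 CPM, a difference of 0.85 (SE 0.17, adjusted p = 0.0488). In these 3 genes both HFD libraries were above the NCD library, and the JQF library lay between them for Tlr8 and Tlr1 but level with the HFD libraries for Tlr13. Tlr2 moved the other way. It stood at 87.4 CPM in the NCD library, 50.9 in HFD 1, 46.3 in HFD 2 and 72.9 in the JQF library, a difference of -0.76 (SE 0.15, adjusted p = 0.0462). Tlr2 and Tlr1, which form a lipopeptide receptor together, thus went in opposite directions in the summed macrophages. Tlr7 (67.6, 93.5, 101 and 74.0 CPM, difference 0.61, adjusted p = 0.0865) and Tlr4 (110, 68.1, 82.9 and 71.4 CPM, difference -0.45, adjusted p = 0.194) did not pass the test. Tlr7 was called with no gene filter (0.70, adjusted p = 0.00667), where 4140 of 20727 genes were called. The macrophage calls lay close to the threshold. Tlr1, Tlr2 and Tlr13 were not called with at most 10% mitochondrial UMIs or with cells of 2 lineages kept (adjusted p = 0.0501 to 0.0777). Without TMM scaling Tlr1 and Tlr13 were not called (adjusted p = 0.0702 for both), with 1 more marker in the gate Tlr13 was not called (adjusted p = 0.0547), and none of the 4 was called by DESeq2 (adjusted p = 0.167 to 0.370).

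Other cells' markers moved with these macrophage values. The summed level of the endothelial marker list (6 of 6 genes detected in each library) in macrophages was 343 CPM in the NCD library, 65.6 in HFD 1, 161 in HFD 2 and 171 in the JQF library, that of the 4 hepatocyte markers was 52.4, 5.36, 13.7 and 19.3 CPM, and that of the 5 classical monocyte markers was 80.2, 237, 244 and 342 CPM. Free RNA, taken from barcodes with at most 100 UMIs that were not called as cells, moved as well. In the NCD, HFD 1, HFD 2 and JQF libraries it held Tlr8 at 1.46, 9.56, 11.7 and 3.13 CPM, Tlr1 at 1.46, 16.3, 21.7 and 7.09 CPM and Tlr13 at 2.91, 21.8, 23.1 and 10.7 CPM, lowest in the NCD library like the macrophage values. Tlr2 in free RNA stood at 16.2, 41.1, 48.7 and 37.4 CPM, also lowest in the NCD library, where the macrophage value was the highest. The part of other cells and of free RNA in the result was not tested. The share of Kupffer cells among macrophages also differed, as given above, and for this reason the Kupffer gate was tested alone.

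In Kupffer cells, 5 of 8 tested members were called, 4 higher and 1 lower, beside 17.9% of all genes (8.94% higher and 8.97% lower). Tlr2 stood at 87.9 CPM in the NCD library, 37.6 in HFD 1, 35.5 in HFD 2 and 57.7 in the JQF library, a difference of -1.22 (SE 0.17, adjusted p = 0.00536), where all macrophages together had given -0.76. Tlr1 stood at 19.2, 48.1, 36.3 and 29.9 CPM (1.16, SE 0.27, adjusted p = 0.0278) and Tlr8 at 20.7, 41.1, 42.4 and 23.9 CPM (1.07, SE 0.22, adjusted p = 0.0187). Tlr13 stood at 31.3, 50.5, 49.5 and 59.9 CPM (0.72, SE 0.19, adjusted p = 0.0423). Tlr7 was called in this gate, at 60.6, 100.1, 101 and 74.7 CPM (0.78, SE 0.18, adjusted p = 0.0260). The direction of each of the 4 genes called in all macrophages was kept, but Kupffer cells are part of those sums, so the agreement is in part built in. The Kupffer gate was fitted with the main settings only, without DESeq2 or the other alternatives. Other cells' markers moved inside this gate too. In the NCD, HFD 1, HFD 2 and JQF libraries the 5 classical monocyte markers summed to 20.2, 49.0, 91.7 and 128 CPM, the 6 endothelial markers to 380, 118, 213 and 292 CPM and the 4 hepatocyte markers to 54.5, 3.79, 14.6 and 20.3 CPM. Free RNA held Tlr7 at 3.64, 30.1, 46.3 and 15.3 CPM in the same order, lowest in the NCD library like the Kupffer value. The part of these markers, of free RNA and of the Timd4 shares given above was not tested. Tlr4 in Kupffer cells (119, 77.0, 94.3 and 90.7 CPM, difference -0.41, adjusted p = 0.188) was not called, nor were Tlr3 and Tlr6.

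**Figure D4:**
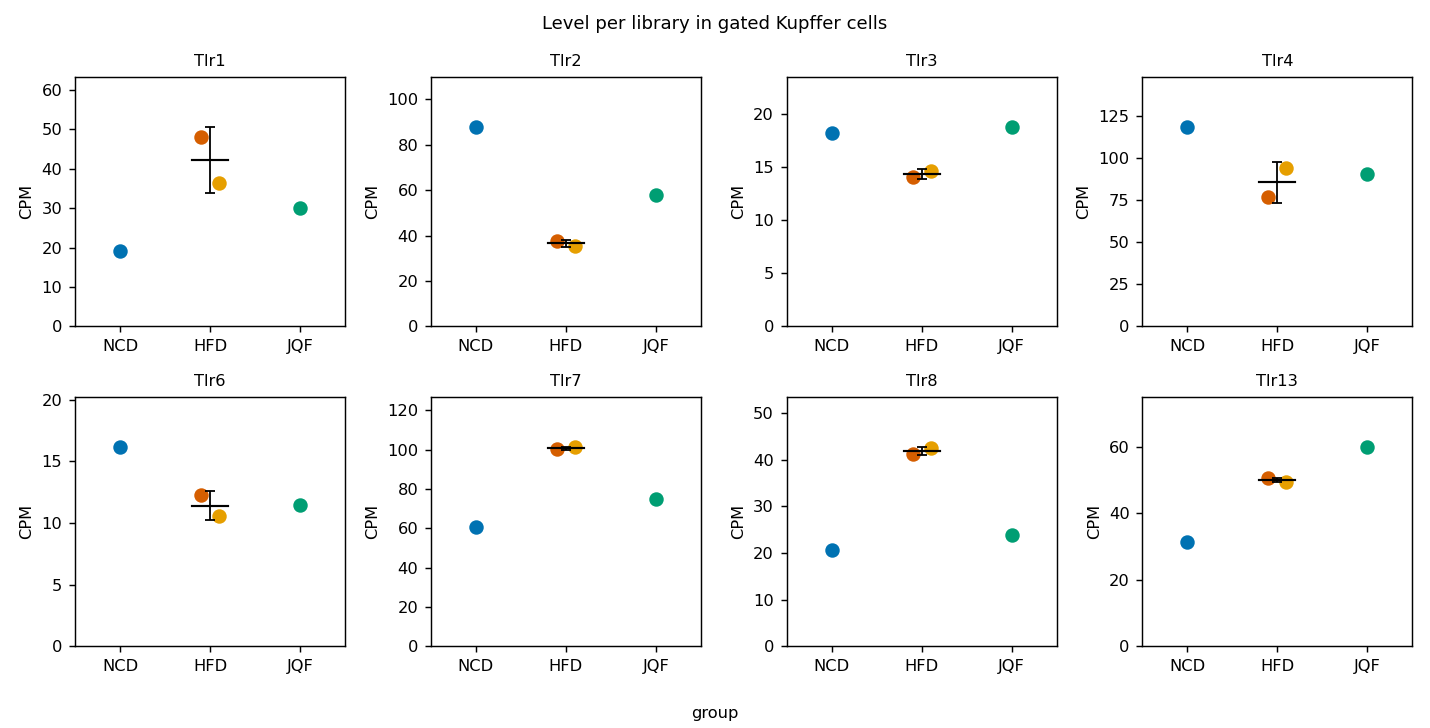
Level in CPM of the 8 tested Toll-like receptors in Kupffer cells, 1 point per library. Tlr1, Tlr7, Tlr8 and Tlr13 were higher and Tlr2 lower in both HFD libraries than in the NCD library, and the JQF library lay between the NCD and HFD libraries for each of these except Tlr13.

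In neutrophils, 2 of 6 tested members were called, both higher (10.5% of all genes in neutrophils, 5.91% higher and 4.63% lower). Tlr4 stood at 68.4 CPM in the NCD library, 205 in HFD 1, 161 in HFD 2 and 135 in the JQF library, a log2 difference of HFD from NCD of 1.501 (SE 0.37, adjusted p = 0.00343), and the NCD value rested on 38 UMIs. Tlr7 stood at 9.003, 35.4, 31.9 and 26.7 CPM, a difference of 1.97 (SE 0.64, adjusted p = 0.0332), and its NCD value rested on 5 UMIs. The NCD library was the lowest of the 4 for both genes. In free RNA, Tlr7 stood at 3.64, 30.1, 46.3 and 15.3 CPM in the same order, likewise lowest in the NCD library, and Tlr4 at 36.4, 26.5, 37.9 and 17.2 CPM. The part of free RNA was not tested. Tlr7 was not called when 1 more marker was required in the gate (1.32, adjusted p = 0.175) or with cells of 2 lineages kept (1.42, adjusted p = 0.118), and it missed the threshold with no gene filter (2.05, adjusted p = 0.0510). It was not called by DESeq2 either. Among the alternatives with a test, Tlr4 lost its call under DESeq2 (adjusted p = 0.0681) and in no other. Of the other receptors led by neutrophils, Tlr13, Tlr2 and Tlr6 were also lowest in the NCD library without passing the test. Tlr5, at a few UMIs per library, was not lowest there. Tlr13 stood at 117, 198, 214 and 182 CPM (0.90, SE 0.34, adjusted p = 0.0791), Tlr2 at 200, 272, 230 and 274 CPM (0.41, SE 0.32, adjusted p = 0.472) and Tlr6 at 55.8, 76.1, 61.3 and 88.4 CPM (0.38, SE 0.39, adjusted p = 0.611). The 5 neutrophil markers summed to 6777 to 7188 CPM in all libraries. The 5 classical monocyte markers summed to 18.0, 41.6, 59.7 and 51.5 CPM, lowest in the NCD library like the called receptors. The 6 endothelial markers summed to 77.4, 0.884, 25.5 and 9.54 CPM and the 4 hepatocyte markers to 97.2, 12.4, 29.5 and 55.3 CPM in the neutrophils of the NCD, HFD 1, HFD 2 and JQF libraries, and their part in the result was not tested.

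In endothelial cells, 1 of 4 tested members was called, and it was lower (14.9% of all genes in endothelial cells, 6.66% higher and 8.2% lower). Tlr3 stood at 46.0 CPM in the NCD library, 20.9 in HFD 1, 30.1 in HFD 2 and 27.0 in the JQF library, a log2 difference of -0.88 (SE 0.28, adjusted p = 0.0141). The HFD 1 value rested on 15 UMIs, and the call was lost without TMM scaling (adjusted p = 0.144), with 1 more marker in the gate (adjusted p = 0.108) and under DESeq2 (adjusted p = 0.523). The 4 sinusoidal markers in these cells summed to 5756, 2933, 5047 and 5595 CPM in the same order. Like Tlr3, these were highest in the NCD library and lowest in HFD 1, as were the 4 hepatocyte markers at 51.5, 20.9, 28.2 and 44.1 CPM and the 5 macrophage markers at 549.5, 249.6, 454 and 456 CPM. The 4 nonclassical monocyte markers summed to 3.20, 26.5, 14.1 and 13.6 CPM. Tlr3 in free RNA stood at 22.9, 24.4, 15.6 and 15.7 CPM. The part of these in the result was not tested. Within the sinusoidal endothelial gate the difference was -0.85 (adjusted p = 0.0222), where 7.92% of all genes were lower. Endothelial Tlr4 stood at 67.5, 64.2, 66.9 and 61.2 CPM (-0.18, SE 0.26, adjusted p = 0.762), and its 4 values lay close together.

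In dendritic cells, 0 of 10 members were called, although 23.8% of all genes in dendritic cells were (10.8% higher and 13% lower). That share depends on scaling, since with library totals without TMM edgeR called 0 of 14627 genes there, with 4971 at an unadjusted p below 0.05, and DESeq2 called 1487. Tlr3 stood at 105, 91.0, 73.8 and 61.6 CPM in the NCD, HFD 1, HFD 2 and JQF libraries (-0.46, SE 0.16, adjusted p = 0.0886), and in cDC1 alone, where 15.5% of all genes were called, the difference was -0.43 (SE 0.16, adjusted p = 0.140). The NCD library was the highest of the 4 in both. With 1 more marker in the gate, Tlr7 was called lower in dendritic cells (-1.34, SE 0.37, adjusted p = 0.0418), beside 3495 of 14227 genes called. In B cells (5 members tested) and T cells (7 tested), where 19.4% and 8.86% of all genes were called, no member passed. Over the 40 pairs, 10 had an unadjusted p below 0.05. Of all genes, those below it ran from 1658 of 7231 in neutrophils to 5550 of 14627 in dendritic cells. DESeq2, run on the same sums, called 0 pairs, with 4 at an unadjusted p below 0.05 and 15 pairs left without an adjusted p. By DESeq2, all genes below it ran from 587 of 7231 in neutrophils to 2780 of 14627 in dendritic cells. The NCD library held 35 pDC and 46 monocytes, too few for this test. In monocytes, tested with a lower limit of 40 cells that was chosen after seeing the data, 0 of 10 members were called (6.55% of all genes). At an unadjusted p below 0.05 there were 3 of the 10, beside 3285 of 12218 genes.

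**Figure D5:**
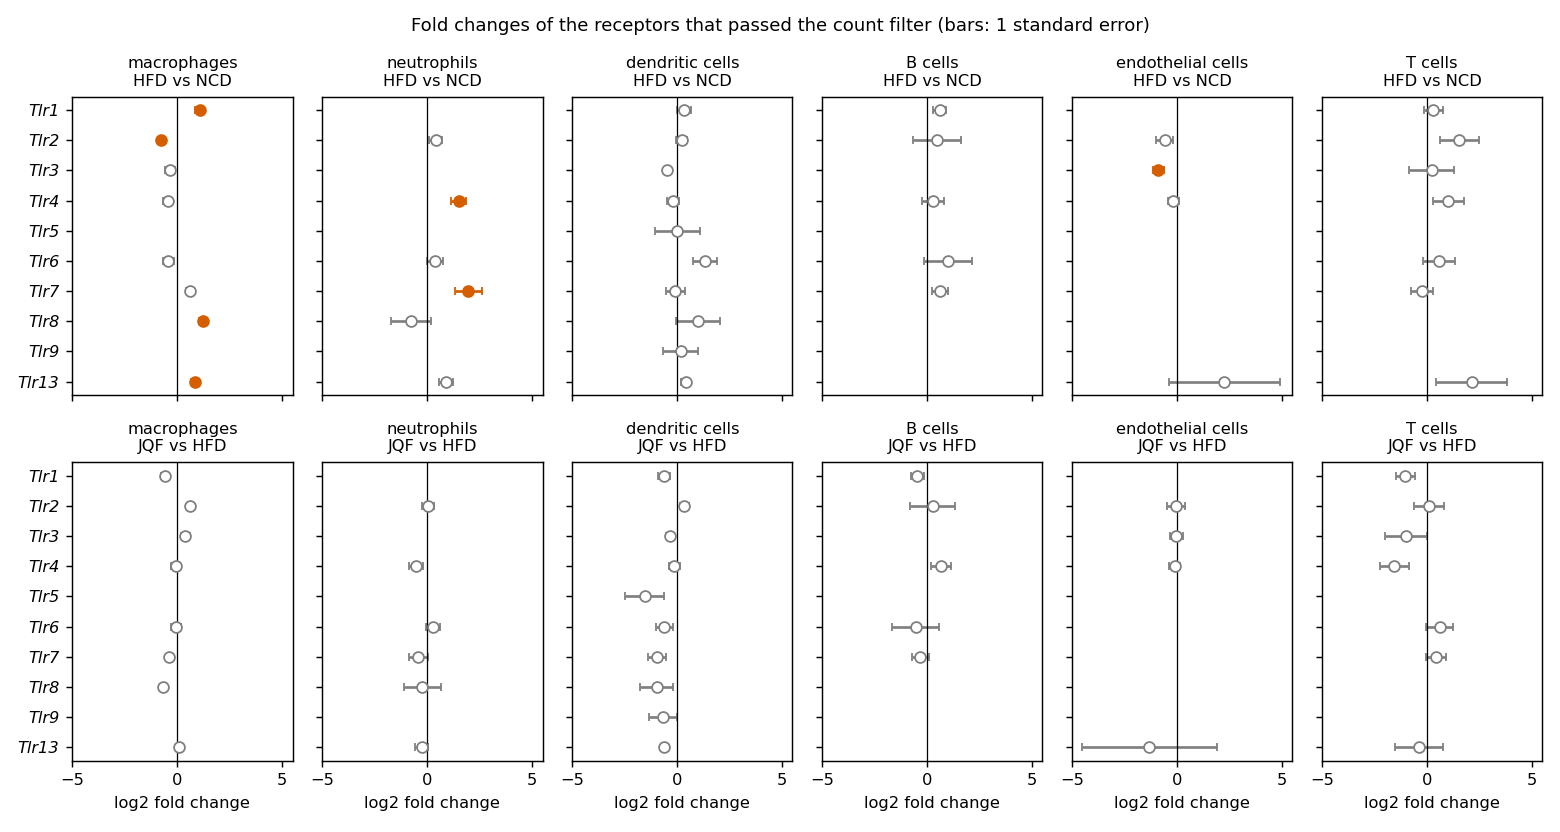
Log2 difference with its SE for each tested member in each of the 6 classes, for HFD against NCD and for JQF against HFD, with filled points at an adjusted p below 0.05. Tlr2 and Tlr4 lie below 0 in macrophages and above 0 in neutrophils under the high-fat diet, and no point is filled for JQF against HFD.

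Whether the effect of the high-fat diet differed between the 6 classes was tested in a fit of all classes together. It did for 2 of 10 members, while 14% of 16333 genes were called. Tlr4 (F = 6.81, adjusted p = 0.0138) had log2 differences of 1.501 in neutrophils, 1.01 in T cells, 0.28 in B cells, -0.18 in dendritic and endothelial cells and -0.45 in macrophages. Tlr2 (F = 5.11, adjusted p = 0.0359) had 1.53 in T cells, 0.49 in B cells, 0.41 in neutrophils, 0.21 in dendritic cells, -0.59 in endothelial cells and -0.76 in macrophages. The T cell values of both genes come from means of 1.14 CPM for Tlr2 and 1.97 CPM for Tlr4. For Tlr7, which was higher in the HFD libraries in neutrophils and in Kupffer cells, the adjusted p was 0.148. Tlr4 was called under each of the 5 alternatives run for this test (adjusted p = 4.56e-05 to 0.0391), while Tlr2 was not called under DESeq2 (adjusted p = 0.0648) or with cells of 2 lineages kept (adjusted p = 0.0662). With cells of 2 lineages kept, monocytes also entered, so that fit covered 7 classes. Tlr7 was called in 3 of the alternatives, with no gene filter (adjusted p = 0.0130), with 1 more marker in the gate (0.0117) and with cells of 2 lineages kept (0.0101). Tlr13 was called in the last of these (adjusted p = 0.0157).

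For JQF against HFD, 0 of 40 pairs were called, and 0.587% of all genes over the 6 classes were, from 0.00774% in macrophages through 0.219% in dendritic cells, 0.401% in neutrophils, 0.626% in T cells and 0.878% in B cells to 1.39% in endothelial cells. At an unadjusted p below 0.05 there were 5 pairs, 3 of them in macrophages, where 1195 of 12924 genes were below it. By class, all genes below it ran from 400 of 7231 in neutrophils to 1441 of 11052 in B cells. DESeq2 also called 0, with 0 at an unadjusted p below 0.05 and 8 pairs without an adjusted p. This comparison shares the HFD libraries with the one above, so the differences of the 2 comparisons are not independent. Without the filter on low counts, 2 pairs in macrophages were called, Tlr8 (-0.72, adjusted p = 0.01001) and Tlr1 (-0.61, adjusted p = 0.0447). Of all macrophage genes, 765 of 20727 were called without the filter, against 1 of 12924 with it. The log2 difference was below 0 in 29 pairs and above 0 in 11. In macrophages the JQF library differed from the HFD pair by -0.67 (SE 0.15, adjusted p = 0.364) for Tlr8, by -0.56 (SE 0.19, adjusted p = 0.482) for Tlr1, by 0.61 (SE 0.14, adjusted p = 0.376) for Tlr2 and by 0.11 (SE 0.15, adjusted p = 0.814) for Tlr13. The JQF library lay outside the HFD pair and on the side of the NCD library for Tlr8, Tlr1 and Tlr2, and just above the pair for Tlr13.

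In Kupffer cells, with 8 members tested and 0.63% of all genes called, the JQF differences were 0.65 (SE 0.17, adjusted p = 0.163) for Tlr2, -0.83 (SE 0.20, adjusted p = 0.146) for Tlr8, -0.45 (SE 0.17, adjusted p = 0.302) for Tlr7 and -0.48 (SE 0.23, adjusted p = 0.389) for Tlr1, and none passed. Over all fine classes 0 of 48 pairs were called, with 9 at an unadjusted p below 0.05. Of all genes, from 0 of 13148 in cDC1 to 179 of 12928 in sinusoidal endothelial cells were called. Those at an unadjusted p below 0.05 ran from 400 of 7231 in neutrophils to 1664 of 11592 in Kupffer cells. In neutrophils, Tlr4 differed by -0.53 (SE 0.31) and Tlr7 by -0.42 (SE 0.44), with the JQF library below both HFD libraries and above the NCD library in each. Dendritic Tlr3 differed by -0.34 (SE 0.16, adjusted p = 0.534) and endothelial Tlr3 by -0.03 (SE 0.30). In dendritic cells the JQF library had the lowest Tlr3 level of the 4, whereas in endothelial cells it lay within the HFD pair.

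The other genes of the pathway were taken as 52 genes in 6 lists, namely co-receptors and chaperones, adaptors, kinases and ligases, transcription factors, brakes and response genes. Over the 6 classes, 286 pairs passed the filter for HFD against NCD, of which 33 were higher and 35 lower. The split depends on scaling, since without the TMM factors (a per-library correction for composition) 29 were higher and 20 lower. By class, 9 were higher and 1 lower of 42 in neutrophils, 0 and 4 of 51 in macrophages, 5 and 14 of 52 in dendritic cells, 5 and 7 of 46 in B cells, 7 and 5 of 46 in endothelial cells and 7 and 4 of 49 in T cells. Of all genes, 8.22% were higher and 11.2% lower in B cells and 2.89% and 5.97% in T cells, and the shares of the other classes are given above. The median log2 difference of the lists was 0.49 in neutrophils and -0.12 in macrophages, against 0.05 and 0.06 for all genes tested in those classes. No adaptor was called in any of the 6 classes, with 2 to 5 of the 5 tested in each.

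In neutrophils, 5 of the 7 tested response genes were higher and 1 was lower. The chemokines Cxcl10 (3.40, SE 0.41), Ccl3 (2.16, SE 0.29) and Ccl4 (1.95, SE 0.29) were higher in the HFD libraries. Cxcl10 stood at 34.2 CPM in the NCD library, 316 in HFD 1, 368 in HFD 2 and 300.1 in the JQF library. Ly96, the partner of Tlr4, stood at 9.003, 45.1, 34.2 and 55.3 CPM (2.21, SE 0.61, adjusted p = 0.0104), lowest in the NCD library like Tlr4, but that value rested on 5 UMIs and DESeq2 gave no adjusted p. Irf7, a transcription factor downstream of Tlr7 and Tlr9, stood at 28.8, 77.0, 76.4 and 33.7 CPM (1.49, SE 0.45, adjusted p = 0.0186), and was not called by DESeq2 (adjusted p = 0.305).

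In macrophages the 4 called genes were all lower in the HFD libraries. They were the cytokines Il6 (104 CPM in the NCD library, 4.78 in HFD 1, 7.83 in HFD 2 and 25.9 in the JQF library, difference -3.87, SE 0.30, adjusted p = 0.0201) and Tnf (569, 144, 179 and 347 CPM, -1.73, SE 0.23, adjusted p = 0.0312), the chemokine Cxcl10 (422, 99.1, 146 and 174 CPM, -1.69, SE 0.29, adjusted p = 0.0385) and the NF-kappaB subunit Rela (-0.83, SE 0.15, adjusted p = 0.0401). Cxcl10 was thus lower in macrophages and higher in neutrophils of the HFD libraries, and the difference between these classes was not tested. With cells of 2 lineages kept, the calls of Cxcl10 and Rela were lost (adjusted p = 0.0592 and 0.0606), and DESeq2 did not call Rela (0.197).

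In dendritic cells, 6 of 14 kinases and ligases were lower and 1 was higher, with Irak2, a kinase that binds Myd88 complexes, at -1.72 (SE 0.16, adjusted p = 0.00198). Il1b, a cytokine, stood at 1910 CPM in the NCD library, 146 in HFD 1, 435 in HFD 2 and 563 in the JQF library (-2.81, SE 0.55, adjusted p = 0.0149), with -2.21 without HFD 1 and -3.86 without HFD 2. By DESeq2 its adjusted p was 0.136. Lower too was Ptgs2, the inducible cyclooxygenase (-2.29, SE 0.24, adjusted p = 0.00305). Irf7 stood at 18.8, 70.8, 54.4 and 42.2 CPM (1.62, SE 0.22, adjusted p = 0.00506). Ifnb1, the interferon induced through Tlr3 and Tlr4, was called higher at 0.250, 31.1, 16.9 and 9.19 CPM, with 1 UMI in the NCD library. It passed the count filter only through the HFD and JQF libraries, where it was higher. With library totals without TMM, 0 of the 19 dendritic calls of the lists were kept (adjusted p = 0.0662 to 0.138). The 4 cDC1 markers in dendritic cells summed to 1697, 874, 986 and 792 CPM and the 4 mature dendritic cell markers to 474, 713, 842 and 634 CPM in the NCD, HFD 1, HFD 2 and JQF libraries. In the same order, cDC1 made up 46.5%, 45.6%, 44.6% and 46.1% of the 144, 976, 1014 and 928 dendritic cells. Mature dendritic cells numbered 9, 135, 150 and 122. The part of these markers and of this mix was not tested. In endothelial cells, Cxcl10 stood at 483 CPM in the NCD library, 117 in HFD 1, 167 in HFD 2 and 60.5 in the JQF library (-1.88, SE 0.25, adjusted p = 4.22e-12), and the brake Nfkbiz stood at 437, 146, 141 and 162 CPM (-1.75, SE 0.25). Hsp90b1, the chaperone that folds most Toll-like receptors, was higher there (1.77, SE 0.29), and the chemokines Ccl4 (2.38, SE 0.42) and Cxcl2 (1.98, SE 0.35) were higher from low levels. Ccl4 stood at 4.38, 11.2, 32.7 and 19.3 CPM, its HFD 1 value rested on 8 UMIs, and the difference was 1.17 without HFD 2, where that of Cxcl2 was 1.29. DESeq2 kept 4 of the 12 endothelial calls of the lists (adjusted p up to 0.732) and left out Ccl4 (0.0574) and Cxcl2 (0.0547), and 7 of 12 were kept without TMM scaling.

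Of the 7 transcription factors, 1 was higher and 2 were lower in B cells, and 3 were higher and 2 lower in T cells. The lower ones in both were the NF-kappaB subunits Rel and Nfkb1, with log2 differences of -1.67 (SE 0.26) and -1.495 (SE 0.21) in B cells and of -1.39 (SE 0.18) and -1.68 (SE 0.21) in T cells. The higher ones in B and T cells were interferon regulatory factors, Irf5 in B cells (1.07, SE 0.24) and Irf3 (1.04, SE 0.20), Irf5 (1.56, SE 0.35) and Irf7 (1.14, SE 0.22) in T cells, named after their values were seen. These calls were not limited to lymphocytes. Rel was also lower in dendritic cells (-1.55, SE 0.25) and endothelial cells (-1.62, SE 0.25). Nfkb1 (-0.94, SE 0.17) and Rela (-0.75, SE 0.14) were lower in dendritic cells. In endothelial cells Irf7 was higher (1.35, SE 0.33) and Irf8 lower (-0.74, SE 0.24). Irak3, a brake on signalling, stood at 301 CPM in the B cells of the NCD library, 81.1 in HFD 1, 82.2 in HFD 2 and 121 in the JQF library (-1.94, SE 0.21, adjusted p = 2.44e-04). Tnf in B cells was higher at 5.98, 55.6, 16.7 and 13.9 CPM in the NCD, HFD 1, HFD 2 and JQF libraries (2.49, SE 0.60), with a difference of 1.46 without HFD 1. Cxcl2 (2.08, SE 0.24) and Il1b (1.91, SE 0.42) in T cells were higher, Cxcl2 at 13.3, 67.1, 48.1 and 33.5 CPM. The Il1b call was lost with at most 10% mitochondrial UMIs (adjusted p = 0.0514) and without the JQF library (0.0525), and its difference rose to 3.29 with 1 more marker in the gate and 3.01 with cells of 2 lineages kept. In B cells the 4 hepatocyte markers summed to 109, 1.06, 15.8 and 31.4 CPM, the 6 endothelial markers to 84.4, 1.59, 19.1 and 8.41 CPM and the 4 mature dendritic cell markers to 968, 303, 648 and 561 CPM, all highest in the NCD library. In T cells the 6 endothelial markers summed to 45.9, 2.01, 11.04 and 4.54 CPM and the 5 classical monocyte markers to 155, 387, 310 and 364 CPM. Their part was not tested. The kinases Ikbkb in B cells (-1.202, SE 0.21) and Irak2 in T cells (-1.22, SE 0.17) were lower. Of the B cell calls of the lists, DESeq2 kept 5 of the 10 to which it gave an adjusted p, and 9 of 12 were kept without TMM scaling. Without the gene filter, where edgeR called 0 of 18748 genes in B cells with 3582 at an unadjusted p below 0.05 and DESeq2 with the filter called 284, 0 of the 12 B cell calls of the lists were kept (adjusted p = 0.0654 to 0.197). For JQF against HFD, 4 of 286 pairs of the lists were called, with 46 at an unadjusted p below 0.05. By class, all genes below it ran from 400 of 7231 in neutrophils to 1441 of 11052 in B cells. Endothelial cells, where 0.882% of all genes were lower, had 3 of the 4 calls, and B cells, where 0.742% were higher, had 1. Endothelial Cxcl10 (-1.26, SE 0.28, adjusted p = 0.00138), Cxcl2 (-1.38, SE 0.37, adjusted p = 0.0180) and Irf7 (-1.25, SE 0.35, adjusted p = 0.0313) were lower, and 0 of the 3 were kept without TMM scaling (adjusted p = 0.467 to 0.767) or with 1 more marker in the gate (adjusted p = 0.324 to 0.680). Without HFD 2 the Cxcl2 difference was -0.70. Tnfaip3 in B cells, an editor of ubiquitin that restrains NF-kappaB, stood at 294, 149, 166 and 335 CPM and was higher (1.18, SE 0.22, adjusted p = 0.0289), with an adjusted p of 0.150 without TMM scaling and 0.604 without the gene filter. DESeq2 called 4 other pairs and none of these, namely Il6 and Cxcl2 in macrophages and Nfkb1 and Nfkbia in T cells, all higher and named after their values were seen. The 8 pairs called by either tool had the same sign in both.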

How the data were processed

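Mouse liver cells were profiled by droplet 3′ RNA sequencing. Per the labels and the submitters' processing notes, the authors made the files with Cell Ranger 6.0.1 (build mm10) and used Seurat 4.0.3, and the deposited values are UMI counts per gene and barcode, not normalized, in barcodes called as cells. The file headers name a later Cell Ranger version, whose default also counts intronic reads. Which setting made these counts is not given in the sources used here, so every level may or may not include intronic UMIs. Kept cells had at least 500 genes and at most 20% mitochondrial UMIs. Classes were gated on marker UMIs, and cells passing the gates of 2 lineages (3.79% to 7.90% per library) were removed as likely doublets, with no doublet caller. Libraries held 67615639 to 108062769 UMIs in kept cells, and pairs of libraries shared 12 to 27 barcodes. Counts were summed per library and class and tested with edgeR 4.0.16 (R 4.3.3; TMM, filterByExpr, quasi-likelihood F test, Benjamini-Hochberg adjustment, threshold 0.05), with 1 residual degree of freedom among libraries in diet comparisons. Class comparisons used all sums of at least 20 cells with library as a block. DESeq2 1.42.0, scaling, filters, gates and left-out libraries were alternatives. The steps were tested on simulated data. Python 3.11.15 made the sums. A pair of member and class got its test in the text where called or where the class had the member's highest mean, and up to 5 called pathway genes per class and comparison with the largest differences and at least 10 CPM were named. The members and lists were chosen with earlier results of these data known. The gene most like Tlr5 is not reported here.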

Additional observations from a re-analysis of the deposited data

Results flagged for a closer look

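The effect of the high-fat diet differed between the 6 cell classes for Tlr2 and Tlr4, by a test of the difference itself in 1 fit of all classes (edgeR's quasi-likelihood F test, Benjamini-Hochberg adjusted over 16333 genes). For Tlr2 the adjusted p was 0.0359, with a log2 difference of HFD from NCD of -0.76 in macrophages and 0.41 in neutrophils. For Tlr4 it was 0.0138, with -0.45 in macrophages and 1.501 in neutrophils. The test spans all 6 classes and is not a contrast of macrophages with neutrophils. T cells are part of it, at low means of 1.14 CPM for Tlr2 and 1.97 CPM for Tlr4, and had the highest Tlr2 difference. Neither Tlr2 in neutrophils nor Tlr4 in macrophages was called within its class. The Tlr2 call was lost under DESeq2 (adjusted p = 0.0648) and with cells of 2 lineages kept (0.0662). The latter fit covered 7 classes, because monocytes also entered. The NCD group has 1 library in every class, so a trait of that library and the diet cannot be told apart.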

How the results depend on the processing

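Of the values given for named pairs under the alternatives tried, 185 stayed on the same side of the threshold or within the spread, 20 kept their direction but lost the call, 7 changed sign in a repeated test, 5 moved and 2 gained a call. Pairs without a call in the main fit, which had none to lose, are among these values. Of the 7 calls for HFD against NCD, 4 remained with 1 more marker in the gate and 6 with no gene filter. The 7 calls for HFD against NCD became 0 under DESeq2 and 4 with library totals without TMM, with at most 10% mitochondrial UMIs and with cells of 2 lineages kept, where 3 of the 7 remained and Tlr7 in endothelial cells was added, and the cause was not tested. Without HFD replicate 1 or HFD replicate 2, values with no test, the 7 differences were 0.732 to 2.06 in the called direction. Their sign could hardly change, since the NCD library lay outside the HFD pair in each of the 7. Tlr3 in endothelial cells moved from -0.88 to -1.32 without HFD 2. For JQF against HFD, 0 calls became 2 with no gene filter, both in macrophages. There the calls over all genes rose from 1 of 12924 to 765 of 20727. The pathway lists gave 42 calls under DESeq2 in place of 68 for HFD against NCD, and 13 with no gene filter in place of 4 for JQF against HFD. Without that filter the JQF calls over all genes changed as well. They rose from 93 of 14850 to 800 of 22666 in T cells and fell from 97 of 11052 to 0 of 18748 in B cells. The 2 calls of differing diet effects became 1 under DESeq2, that of Tlr4. Tlr7 was added with no gene filter, with 1 more marker and with cells of 2 lineages kept, and Tlr13 with the last of these. Calls between neighbouring classes ranged from 19 to 33 with 1 library left out. Against T cells the count of higher pairs ranged from 72 to 90.

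Changes of sign occurred for JQF against HFD, in pairs without a call. In repeated tests they were Tlr13 in macrophages (-0.000741) and Tlr2 in neutrophils (-0.108) with cells of 2 lineages kept, Tlr13 in neutrophils with 1 more marker required (0.0667), and Tlr3 in endothelial cells under DESeq2 (0.0280), at most 10% mitochondrial UMIs (0.0391), 1 more marker (0.0538) and cells of 2 lineages kept (0.0158). Without HFD replicate 2, with no test, Tlr2 in neutrophils went to -0.108 and Tlr3 in endothelial cells to 0.405. Leaving out TMM moved the median of all genes by over 0.1 for HFD against NCD in dendritic cells (0.12 to 0.23) and endothelial cells (0.02 to 0.16), and for JQF against HFD in T cells (-0.01 to -0.12) and B cells (-0.01 to -0.11). No paired analysis was possible because the groups share only the replicate number 1. A depth of a few UMIs limits Tlr5 and Tlr9 in every class, and the lone NCD and JQF libraries limit every diet comparison.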

Other observations

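The murine receptors Tlr11 and Tlr12, which bind profilin and are not among the 10 genes, were also measured. Tlr11 stood in cDC1 at 57.0 CPM in the NCD library, 75.9 in HFD 1, 54.7 in HFD 2 and 45.3 in the JQF library, and Tlr12 stood there at 40.6, 37.7, 33.7 and 27.1 CPM. Tlr12 was also present in Kupffer cells, at 41.4, 64.2, 54.4 and 35.1 CPM, where Tlr11 had 2.33 to 4.23 CPM. No Tlr11 UMI was counted in neutrophils or B cells. Neither gene was called in macrophages or dendritic cells in the diet comparisons, the lowest adjusted p being 0.248 for Tlr12 in dendritic cells.

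The genes most like each member other than Tlr5 were ranked by Pearson correlation of log2(CPM + 1) over 47 sums of a library and a class, which share libraries and depth, as a description. They were Acp5 for Tlr1 (r = 0.87), Nfe2l2 for Tlr2 (0.92), Gatm for Tlr3 (0.83), Mtus1 for Tlr4 (0.91), Gm16556 for Tlr6 (0.94), Cybb for Tlr7 (0.91), Abcd2 for Tlr8 (0.92), Spns3 for Tlr9 (0.82) and Lrrc25 for Tlr13 (0.94).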
